A study of Mus musculus with 10 samples.

Results

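The clustered protocadherin genes were examined as a stretch of open chromatin on chromosome 18, from 37.04 to 37.99 Mb in the mouse build mm39 (GRCm39). A peak was counted as a member when its interval overlapped that window of 950 kb by at least 1 bp. Over the 10 libraries of the series, 141 of 202366 distinct peaks were members. Merged where they overlapped, they gave 74 of the 74593 open regions of the series.

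The study profiled the ventral tegmental area, a midbrain region that holds dopamine neurons, by bulk ATAC-seq, an assay in which a transposase cuts open DNA and tags its ends for sequencing. All mice were adult, past postnatal day 60, and all were ArcCreERT2 x Sun1/+. In such mice the promoter of Arc, a gene that neurons switch on soon after firing, drives CreERT2, which upon tamoxifen turns on a tagged Sun1 in the nuclear envelope, and tagged nuclei were pulled out of the total on magnetic beads. The libraries comprised 3 stressed activated, 2 standard-reared activated, 3 stressed non-activated and 2 standard-reared non-activated samples, where stressed means exposed to early-life stress. Cell types in each class of nuclei were not measured here, so cell composition and activation cannot be told apart in contrasts of these classes. Each library came from a single animal. The 6 animals comprised 3 stressed mice, which each gave both classes of nuclei, and 3 standard-reared mice, of which 1 gave both. The standard-reared non-activated group was female only, and the other groups held both sexes.

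Protocadherins of the cluster are cell surface proteins that bind like partners on neighbouring cells. Neurons use them for self-avoidance of their branches and for survival of interneurons. The genes are arranged as the Pcdha, Pcdhb and Pcdhg clusters, in that order along the chromosome. In RefSeq's gene table (GRCm38.p6, used here for names and order only), the Pcdha cluster runs from Pcdha1 to Pcdhac2 with 14 genes. The Pcdhb cluster runs from Pcdhb1 to Pcdhb22 with 22 genes, and the Pcdhg cluster from Pcdhga1 to Pcdhgc5 with 22, of which 21 are protein-coding. Each variable exon of Pcdha and Pcdhg has its own promoter and is spliced to constant exons shared by the whole cluster, whereas Pcdhb genes are single exons. A given neuron uses only some of the alternate promoters, through looping by CTCF and cohesin to distant enhancers. The C-type genes at the end of the Pcdha and Pcdhg clusters are chosen more constantly. An annotation of mm39 was not used here, so peaks are given by position. None is assigned to a gene, a variable exon promoter, a constant exon or an enhancer. Whether genes other than protocadherins lie in the window was not checked, so a window peak need not belong to a protocadherin. Without that annotation the labelled tissue was not checked against marker genes either.

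The lists differed widely in length and depth before any comparison. They held 7076 to 50786 peaks on chromosomes 1 to 19, X and Y. Fragment length was not measured here, and the width of the narrowest peak of each list stood in for it. Depth was the lowest background solved from the fold and p of the peaks, divided by that width. It was 5.30 to 10.9 fragments per kb of genome for activated nuclei. It was 0.309 to 1.45 in 4 non-activated libraries and 6.52 in stressed non-activated replicate 1. By that stand-in, those 4 libraries also had longer fragments (210 to 250 bp) than the other 6 (134 to 161 bp). The lowest number of fragments under a called peak ranged from 2 to 4 in these 4 libraries and was 6 or 7 in the rest. A region missing from a shallow list was thus not called at that depth, which does not show that it was closed.

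The window held few peaks in most libraries and many in a pair of them. Stressed activated replicates 1, 2 and 3 had 8, 12 and 7 peaks, and standard-reared activated replicates 1 and 2 had 59 and 10. Stressed non-activated replicates 1, 2 and 3 had 29, 4 and 3 peaks, and standard-reared non-activated replicates 1 and 2 had 1 and 8. Standard-reared activated replicate 1 and stressed non-activated replicate 1 thus stood above the rest, and they are also the libraries with the longest lists (39783 and 50786 peaks). Peaks of the window covered 252 to 16291 bp per library, of which standard-reared activated replicate 1 had the most.

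**Figure D1:**
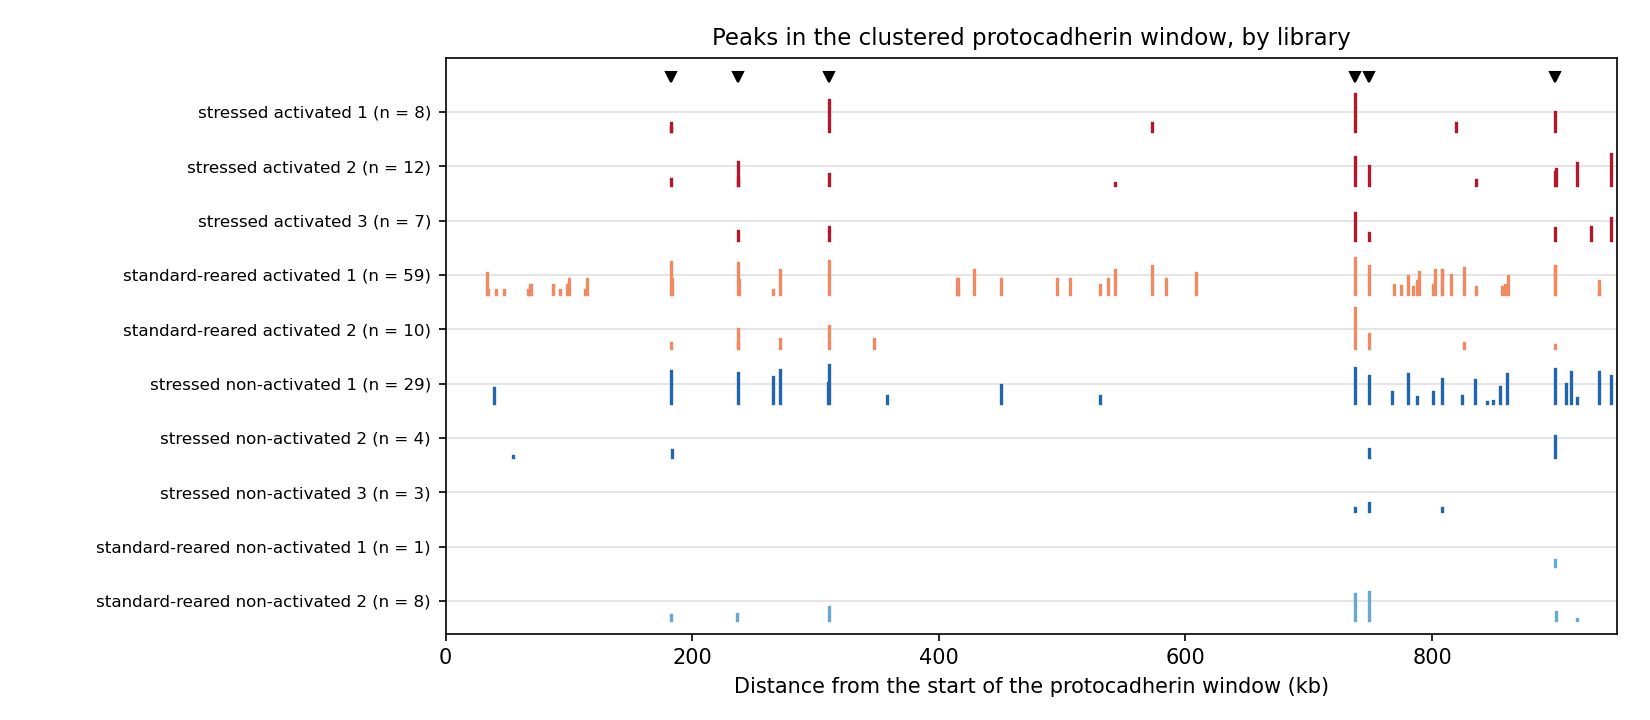
Position of every peak of the clustered protocadherin window, as distance from the window's start in kb (x axis), in each of the 10 libraries (rows). The height of a tick is the percentile of the peak's -log10 q within its own list, a full row being percentile 100, and triangles mark the 6 regions with a peak in 6 or more libraries. Standard-reared activated replicate 1 has 59 ticks spread over most of the window, while 8 libraries have 1 to 12 ticks that mostly fall under the triangles.

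Set against the length of its list, the window stood out in standard-reared activated replicate 1. Its share was 14.8 peaks per 10000 (95% Clopper-Pearson interval 11.3 to 19.1), against 1.41 to 6.09 in the other 9 libraries. No interval of the other libraries reached the lower bound of 11.3. These intervals cover counting error only. Variable exons resemble each other in sequence, how reads that match several of them were handled is not stated in the sources used here, and its part in the peaks of this library was not tested. In stressed non-activated replicate 1, the longest list, the share was 5.71 (3.83 to 8.20), while in standard-reared non-activated replicate 1, the shortest, it was 1.41 (0.0358 to 7.87). Among 2581 stretches of 950 kb tiled over the autosomes, 99.3% held fewer peaks than the window in standard-reared activated replicate 1. In the other 9 libraries 32.5% to 76.9% did, which was above the median in 8 of them and below it in standard-reared non-activated replicate 1. The chromosome as a whole held 3.37% of the list in standard-reared activated replicate 1. It held 3.43% in stressed non-activated replicate 1 and 2.78% to 3.16% in the other 8. In standard-reared activated replicate 1 the stretches of the same length just before and after the window held 42 and 37 peaks. These are fewer than the 59 of the window, beside a 95th percentile of 40 over the autosomal stretches. In each of the other 9 libraries both neighbouring stretches held more peaks than the window.

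**Figure D2:**
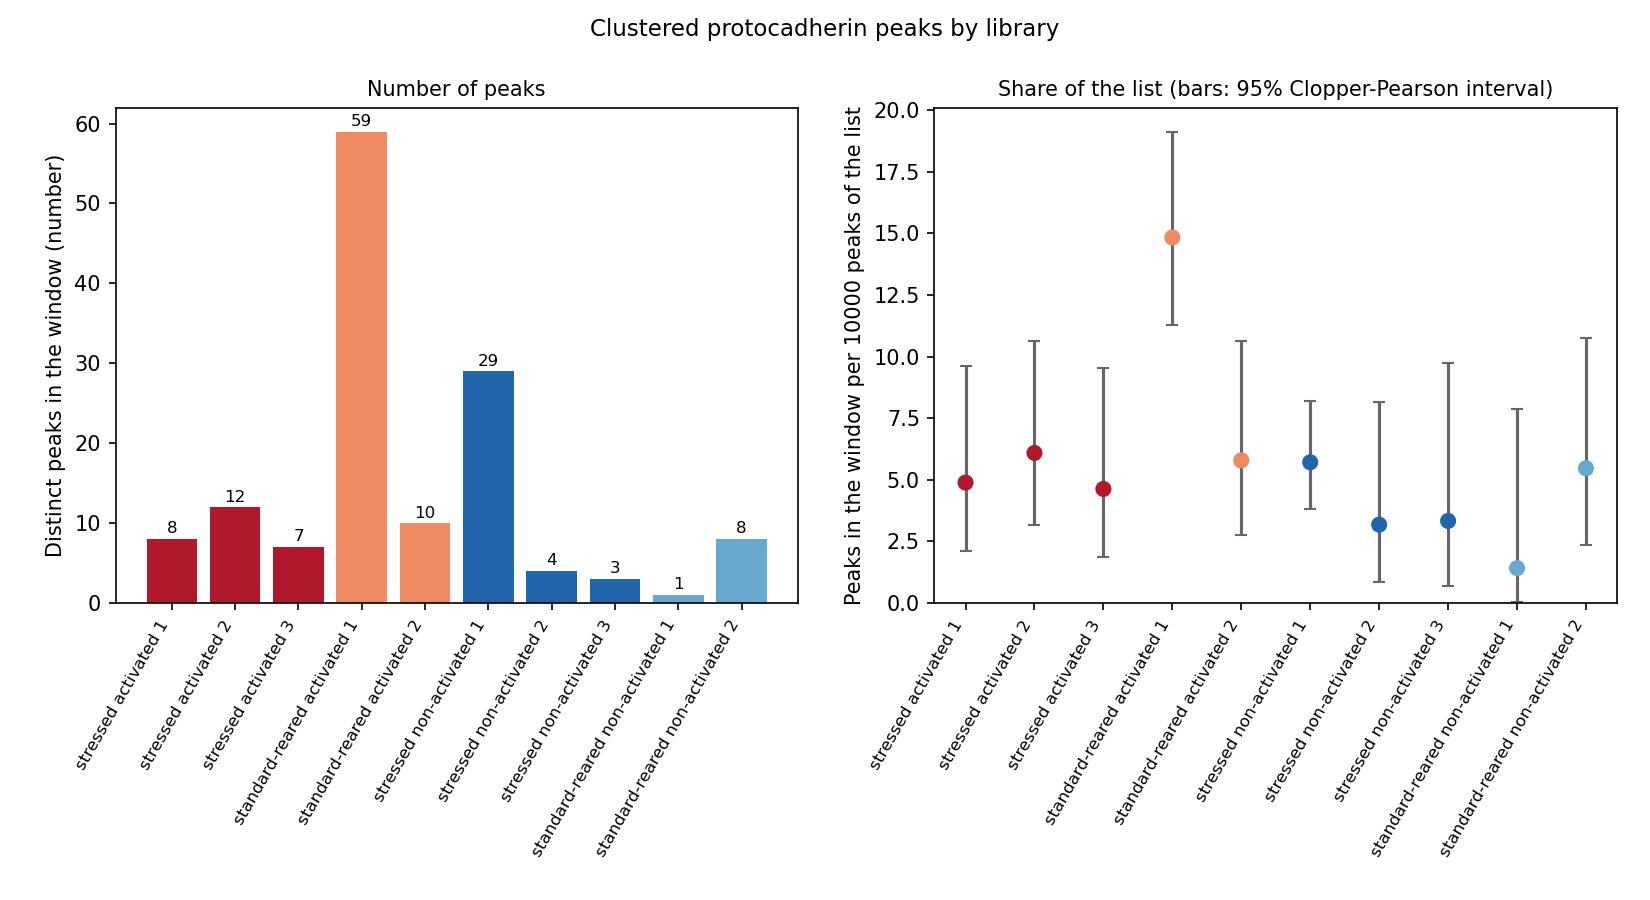
Number of distinct peaks in the protocadherin window (left, bars from 0) and the same per 10000 peaks of the list (right, points with 95% Clopper-Pearson intervals) for each library. Standard-reared activated replicate 1 has 59 peaks and a share of 14.8, while the shares of the other libraries lie between 1.41 and 6.09.

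**Figure D3:**
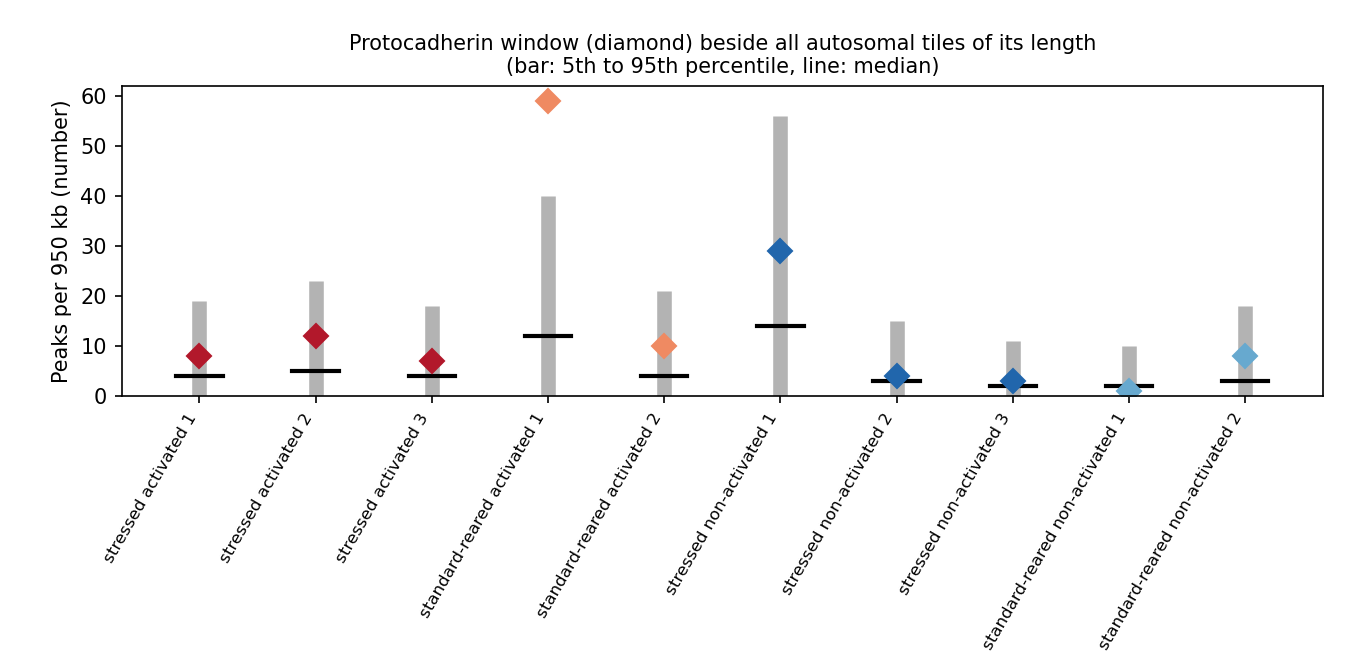
Peaks in the protocadherin window (diamond) and in all 2581 autosomal stretches of 950 kb (grey bar from the 5th to the 95th percentile, black line at the median), in number per stretch, for each library. The diamond lies above the bar in standard-reared activated replicate 1, at 59 peaks against a 95th percentile of 40, and within the bar in the other 9 libraries.

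No region of the window was called in all 10 libraries, and a small core was called in most. Of the 74 regions, 54 (73.0%) had a peak in a single library, against 65.9% of all regions of the series. A further 9 were found in 2 libraries and 5 in 3. The remaining 6 (8.11%) were found in 6 to 9 libraries, against 9.56% of all regions. Regions found in all 10 libraries made up 7.10% of the series and 0 of the 74 here. Regions were 134 to 1430 bp wide with a median of 264 bp. The median distance between neighbours was 5.47 kb. The longest stretch with no peak in any list ran for 128 kb between the regions at 37.649 and 37.777 Mb, followed by 67.5 kb between 37.155 and 37.223 Mb. With the 2 longest lists left aside, 19 of the 74 regions had a peak.

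Window peaks were weaker than the usual peak of their list. The fold is the authors' ratio of fragments at the summit to local background, with 1 added to each. The median fold of the window was below the list's own median in 9 of 10 libraries. It was 3.93 in the window and 4.11 in the whole list for standard-reared activated replicate 1. For stressed non-activated replicate 1, the exception, the values were 6.07 and 5.93. The median window peak stood at percentile 7.83 to 37.9 of its list by -log10 q in 9 libraries and at percentile 55.9 in stressed non-activated replicate 1. When every list was shortened to its 7076 strongest peaks, each kept 1 or 2 peaks of the window, 13 in all, from 5 regions.

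The region at 37.777 Mb (37776943 to 37777572) was the most prominent. Its highest fold was 8.27, 7.55 and 6.999 in stressed activated replicates 1 to 3, and 9.65 and 14.5 in standard-reared activated replicates 1 and 2. In non-activated nuclei it was 15.5 and 4.11 in stressed replicates 1 and 3 and 9.31 in standard-reared replicate 2. The summits rested on 22, 17, 14, 26 and 29 fragments in those activated libraries and on 33, 4 and 13 in the non-activated ones. The remaining non-activated lists had no peak there. It was the strongest window peak by -log10 q in 4 of 5 activated lists and in 0 of 5 non-activated lists, and second in the other activated list and in the 3 non-activated lists that held it. In standard-reared activated replicate 2 it stood at percentile 97.7 of the whole list. Its summits lay between 37777258 and 37777474, a spread of 216 bp. Folds are each list's own values and are not on a common scale between libraries.

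Near it, the region at 37.789 Mb (37788630 to 37789058) was called in 8 libraries, 4 of each class. Its fold was 5.64 and 4.43 in stressed activated replicates 2 and 3, and 5.68 and 5.54 in standard-reared activated replicates 1 and 2. It was 9.102, 4.90 and 4.37 in stressed non-activated replicates 1 to 3, and 10.3 in standard-reared non-activated replicate 2. This was the only region of the window called in all 3 stressed non-activated lists. It was the strongest window peak in 2 non-activated lists, stressed replicate 3 and standard-reared replicate 2.

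The region at 37.351 Mb (37351002 to 37351499) was called in all 5 activated lists and in 2 of 5 non-activated lists. Its fold was 7.22, 4.75 and 5.02 in stressed activated replicates 1 to 3, and 7.58 and 7.20 in standard-reared activated replicates 1 and 2. Among non-activated lists it was 17.3 in stressed replicate 1, on 56 fragments, and 5.90 in standard-reared replicate 2, on 7. The value of 17.3 was the highest fold of any peak in the window. The 3 lists without it were those with the fewest peaks in the series (7076, 9008 and 12582). Summits of the 7 libraries lay within 118 bp of each other.

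The region at 37.94 Mb (37939074 to 37940438) was called in 9 libraries, the most of any in the window. Its highest fold was 4.89, 4.68 and 4.41 in stressed activated replicates 1 to 3, and 4.47 and 3.68 in standard-reared activated replicates 1 and 2. Non-activated nuclei had 10.9 and 6.56 in stressed replicates 1 and 2, and 4.64 and 4.95 in standard-reared replicates 1 and 2. It was the sole window peak of standard-reared non-activated replicate 1, on 8 fragments. The region was 1365 bp wide, and its strongest summits were up to 939 bp apart between libraries. Stressed activated replicate 2 and standard-reared activated replicate 1 each had separate peaks on its left and right sides, and stressed non-activated replicate 1 had a single peak of 1120 bp over both.

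At 37.223 Mb (37222668 to 37223417) a region was called in 7 libraries. Its fold was 4.25 and 4.28 in stressed activated replicates 1 and 2, and 7.06 and 4.43 in standard-reared activated replicates 1 and 2. It was 11.2 and 4.8 in stressed non-activated replicates 1 and 2, and 4.56 in standard-reared non-activated replicate 2. At 37.277 Mb (37276490 to 37277919) a region was called in 6 libraries and was the widest, at 1430 bp. There the fold was 6.33 and 4.32 in stressed activated replicates 2 and 3, and 5.48 and 6.11 in standard-reared activated replicates 1 and 2. Among non-activated lists it was 7.27 in stressed replicate 1 and 4.79 in standard-reared replicate 2. Folds of activated and non-activated lists overlapped at both regions. The single interval of stressed non-activated replicate 1 at 37.277 Mb spanned 1419 bp and held 4 summits.

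Presence of these 6 regions is given beside the reach of each list, and a link between them was not tested. Of the 7131 regions of the series found in 6 to 9 libraries, the 5 activated lists held 86.6% to 97.6%. Stressed non-activated replicates 1, 2 and 3 held 99.4%, 63.9% and 33.1%, and standard-reared non-activated replicates 1 and 2 held 20.3% and 89.0%. In the window, the activated lists held 4, 6 and 5 of the 6 regions in stressed replicates 1 to 3, and 6 and 6 in standard-reared replicates 1 and 2. The non-activated lists held 6, 3 and 2 in stressed replicates 1 to 3, and 1 and 6 in standard-reared replicates 1 and 2.

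**Figure D4:**
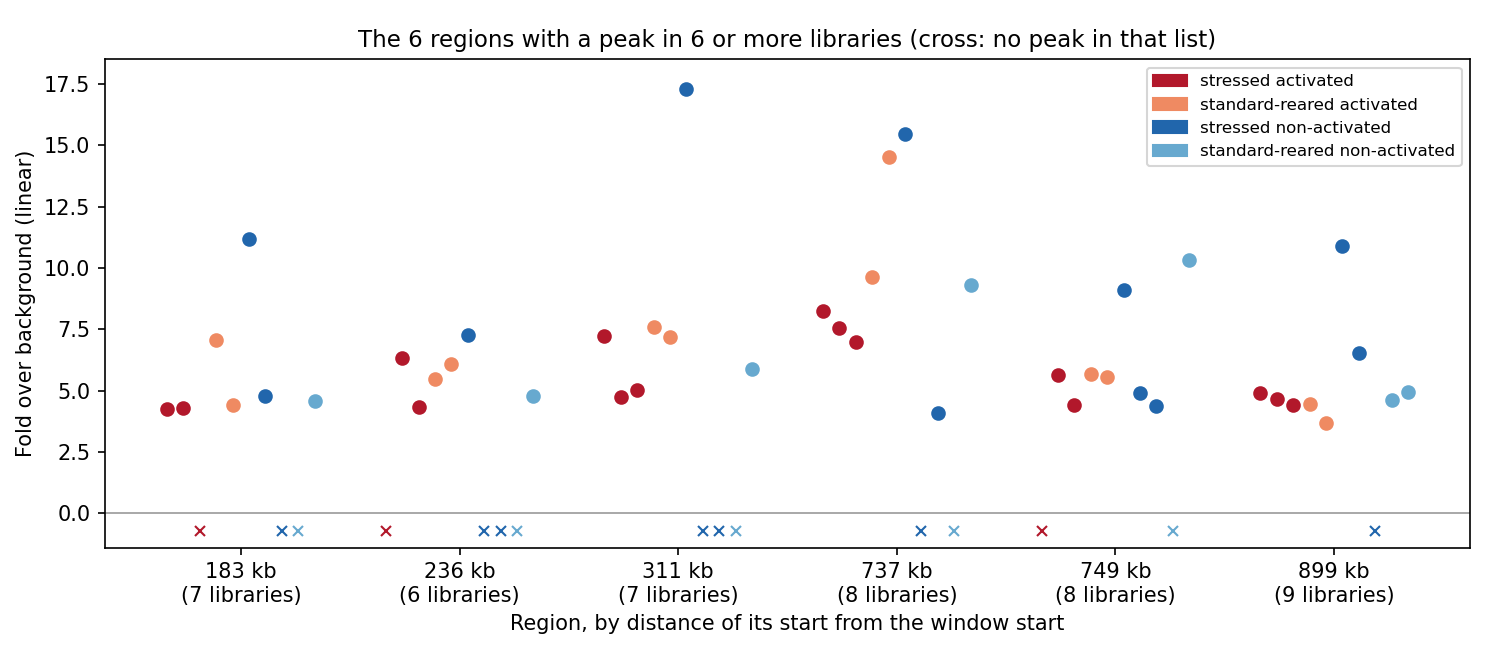
Fold over background at the 6 regions of the protocadherin window with a peak in 6 or more libraries. The fold is linear, the authors' value of the strongest peak in the region, and regions are placed by distance from the window's start in kb. Each point is a library, coloured by group, and a cross marks a library with no peak there. Most folds lie between 4 and 8, and stressed non-activated replicate 1 reaches 17.3 in the region at 311 kb and 15.5 in that at 737 kb.

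Next came regions in 3 libraries. At 37.985 Mb (37985144 to 37985471), close to the end of the window, the fold was 7.52 and 5.34 in stressed activated replicates 2 and 3 and 6.87 in stressed non-activated replicate 1. No standard-reared list had a peak there, and how often this holds among all regions found in 3 libraries was not computed. The region was the strongest window peak of stressed activated replicate 2. At 37.848 Mb (37847783 to 37848302) the fold was 4.89 in standard-reared activated replicate 1, and 7.59 and 4.11 in stressed non-activated replicates 1 and 3. At 37.875 Mb (37875001 to 37875494) it was 3.93 in stressed activated replicate 2, 3.21 in standard-reared activated replicate 1 and 6.84 in stressed non-activated replicate 1. The regions at 37.312 and 37.866 Mb are described with the comparisons below. The other 63 regions, of which 54 were in 1 library, 8 in 2 and 1 in 3, reached folds of at most 9.11.

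Most of the 59 peaks of standard-reared activated replicate 1 were found in that library alone. It had a peak in 55 regions, of which 37 (67.3%) were in no other list, against 42.6% of its regions over the whole genome. Of its window regions 15 (27.3%) were also called in stressed non-activated replicate 1, against 53.8% genome-wide. For stressed non-activated replicate 1 the picture was the other way round, with 12 of 29 window regions (41.4%) in no other list, against 53.2% genome-wide. The 15 regions called in both lists were 51.7% of its 29 window regions, against 41.5% genome-wide. The 37 peaks held 7 to 13 fragments at folds of 3.03 to 4.93, and 21 of them had a -log10 q under 3. Its 8 peaks in the regions of 6 to 9 libraries held 14 to 26 fragments at folds of 3.46 to 9.65. The window peaks found in this library alone thus had fewer fragments than those it shared with most other lists. The same comparison was not made over its whole list. Leaving out peaks with a -log10 q under 5 left 9 of the 59, against 20 of the 29 in stressed non-activated replicate 1. In the whole lists of these libraries it left 15439 of 39783 and 34893 of 50786 peaks, in that order.

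Along the window, the numbers of peaks in these libraries differed more in some stretches than in others. Between 37.04 and 37.14 Mb, standard-reared activated replicate 1 had 12 peaks, stressed non-activated replicates 1 and 2 had 1 each, and the other 7 libraries had 0. No region of that stretch was shared. Between 37.44 and 37.64 Mb, standard-reared activated replicate 1 had 13 peaks, in bins of 6 and 7. Stressed non-activated replicate 1 had 2 there, 1 in each bin. From 37.84 to 37.94 Mb both were rich, with 11 and 9 peaks. In the last 50 kb, from 37.94 Mb on, standard-reared activated replicate 1 had 3 and stressed non-activated replicate 1 had 5. The strongest peaks found only in stressed non-activated replicate 1 lay at 37952296 to 37952818 (fold 5.98 and -log10 q 21.3) and at 37820577 to 37820838 (fold 9.11 and -log10 q 16.5), both chosen after their values were seen.

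In stressed mice, activated and non-activated nuclei gave window counts within the spread of their replicates. The mean log2 number (after adding 0.5) was 3.21 ± 0.38 in activated and 2.95 ± 1.68 in non-activated libraries (SD, n = 3 each), a difference of 0.26. The exact permutation test, two-sided here and below, gave p = 0.9, and p = 0.9 when adjusted over the 5 comparisons. The share was 5.20 ± 0.78 per 10000 in activated and 4.07 ± 1.42 in non-activated libraries (SD, n = 3 each), a difference of 1.127 (exact permutation p = 0.3, adjusted p = 0.416, smallest possible p = 0.1). By animal, activated and non-activated lists had 8 and 29, 12 and 4, and 7 and 3 peaks in replicates 1, 2 and 3, so the direction differed between animals. Without stressed non-activated replicate 1, the deepest non-activated library, the difference in log2 number was 1.22 (exact permutation p = 0.1), and without stressed non-activated replicate 2 or 3 it was -0.13 or -0.31. Of the 20 window regions found in at least 2 libraries, 0 were in all 3 activated and no non-activated list, against 0.173% of all such regions, and 0 showed the reverse, against 0.0708%. Without stressed non-activated replicate 1 there was 1 region of activated lists only, against 6.13% of all regions under that setting. Without stressed non-activated replicate 2 there was 1 of non-activated lists only, against 0.409%.

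In standard-reared mice, the 59 and 10 window peaks of activated nuclei did not overlap the 1 and 8 of non-activated nuclei. Nor did the whole lists overlap in length, with 39783 and 17283 peaks against 7076 and 14636. With 2 against 2 libraries the exact permutation test cannot pass 0.05. The mean log2 number was 4.64 ± 1.77 in activated and 1.84 ± 1.77 in non-activated libraries (SD, n = 2 each), a difference of 2.81 (exact permutation p = 0.333, the smallest possible, adjusted p = 0.555). Leaving out 1 library at a time gave 1.56 without replicate 1 of either group and 4.06 without replicate 2 of either. The share was 10.3 ± 6.4 in activated and 3.44 ± 2.87 in non-activated libraries (SD, n = 2 each; exact permutation p = 0.333, adjusted p = 0.416). That difference of 6.87 was 2.35 without standard-reared activated replicate 1 and 11.4 without standard-reared activated replicate 2. The animal with both classes had 10 peaks in activated and 1 in non-activated nuclei, at shares of 5.79 and 1.41. Activated libraries were also deeper, with shorter fragments by the same stand-in, and depth and activation cannot be told apart in this contrast. Both non-activated libraries were female and activated replicate 1 was male, so sex cannot be told apart fully either. At equal list length the difference in number was -0.37 on the log2 scale.

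Regions at 37.312 Mb (37311359 to 37311922) and 37.866 Mb (37865670 to 37865971) were called in both standard-reared activated lists and in neither standard-reared non-activated list. At 37.312 Mb the fold was 4.93 and 4.99 in standard-reared activated replicates 1 and 2, and 11.3 in stressed non-activated replicate 1, the one further library with a peak there. At 37.866 Mb it was 4.86 and 4.43 in standard-reared activated replicates 1 and 2. These are 2 of the 20 window regions, against 10.9% of all regions, a like share. The reverse held for 0 regions in the window and 0.169% of all regions. Without standard-reared activated replicate 2 the number was 12 of 20, against 36.1% of all regions under that setting. Without standard-reared non-activated replicate 2 it was 7 of 20, against 31.1%, so the share over the whole genome moved with the window in both cases.

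Pooled over rearing, activated nuclei had a mean log2 number of 3.79 ± 1.21 and non-activated nuclei 2.51 ± 1.603 (SD, n = 5 each), a 2.43-fold ratio that did not pass (exact permutation p = 0.23, adjusted p = 0.555). The share was 7.24 ± 4.28 in activated and 3.82 ± 1.78 in non-activated libraries (SD, n = 5 each; exact permutation p = 0.0794, adjusted p = 0.397, smallest possible 0.00794). Without standard-reared activated replicate 1 the difference in share was 1.53 rather than 3.42. Without stressed non-activated replicate 1 the difference in log2 number was 1.87 (exact permutation p = 0.0397), and every remaining activated library was then deeper than every remaining non-activated library. These permutation tests did not pair libraries of the same animal. In the 4 animals with both classes, the share was higher in activated nuclei of 3. No window region was in all 5 activated and no non-activated list, against 0.0275% of all regions, and none showed the reverse, against 0.0% of all regions.

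No difference between stressed and standard-reared mice passed the test in either class of nuclei, and the smallest p that 3 against 2 libraries allow is 0.1. In activated nuclei the mean log2 number was 3.21 ± 0.38 (SD, n = 3) in stressed and 4.64 ± 1.77 (SD, n = 2) in standard-reared mice, a difference of -1.43 (exact permutation p = 0.2, adjusted p = 0.555). The share was 5.20 ± 0.78 (SD, n = 3) in stressed and 10.3 ± 6.4 (SD, n = 2) in standard-reared mice, a difference of -5.11 (exact permutation p = 0.2, adjusted p = 0.416). Without standard-reared activated replicate 1 these differences were -0.18 and -0.59. No region was in all 3 stressed and no standard-reared activated list, against 0.366% of all regions. The regions at 37.312 and 37.866 Mb showed the reverse, 2 of 20 against 3.81% of all regions. Without standard-reared activated replicate 2 that number was 9 of 20, against 20.7% of all regions under that setting.

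In non-activated nuclei the mean log2 number was 2.95 ± 1.68 (SD, n = 3) in stressed and 1.84 ± 1.77 (SD, n = 2) in standard-reared mice, a difference of 1.12 (exact permutation p = 0.6, adjusted p = 0.75). The share was 4.07 ± 1.42 (SD, n = 3) in stressed and 3.44 ± 2.87 (SD, n = 2) in standard-reared mice, a difference of 0.63 (exact permutation p = 0.9, adjusted p = 0.9). Without standard-reared non-activated replicate 1, the shortest list, the differences were -0.13 and -1.39. Without stressed non-activated replicate 1 the difference in share was -0.18. No window region separated the groups in either direction, against 0.358% and 0.0315% of all regions. Found in stressed lists only was 1 region without stressed non-activated replicate 2, against 1.33% of all regions under that setting, and 1 without standard-reared non-activated replicate 2, against 6.41%. Both standard-reared non-activated libraries were female, so sex and rearing cannot be told apart fully here.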

How the data were processed

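Each of the 10 bulk ATAC-seq libraries had a peak list. The submitters' processing notes name build mm39, the peak caller MACS2 (2.2.9.1), the aligner Bowtie2 (2.4.5), the read trimmer fastp (0.23.4), and also R (4.4.2) and SAMtools (1.13). Settings of the peak caller, read shifting and the removal of duplicate or mitochondrial reads are steps not given in the sources used here. Any of them could change which peaks were called. In the lists deposited by the authors the fold is a linear ratio of fragments at the summit to local background, p and q are given as -log10, and the score is the -log10 q on a whole-number scale.

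Peaks on the mitochondrial genome and unplaced sequences were left out of every list. An interval repeated for several summits was counted once, with its highest -log10 q. Pileup and background were solved from fold and p with a pseudocount of 1 and a relative misfit of at most 2e-05, which worked for all 141 window peaks. Regions were merged over all lists, and those in at least 2 libraries were compared. Number (log2 after adding 0.5) and share were tested by two-sided exact permutation with Benjamini-Hochberg adjustment over 5 comparisons. P-values measure the spread between single-animal libraries. The activation tests treated libraries of the same animal as independent, although 4 animals gave both classes. Pairing by animal is given among the alternatives. Library names in the labels show that replicate numbers pair animals in stressed mice, and that they do not in standard-reared mice. The functions were tested on simulated data.

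The regions named are, by rule, those in all 10 libraries, the 10 next by number of libraries and then by median percentile of -log10 q, those separating groups, and the strongest of each list. The window and the lists were chosen with earlier results of these data known. Planned results on promoters, gene lists and motifs need an mm39 annotation or sequence and are not reported here. Alternatives were a stricter q, every summit entry, equal list length, a wider window, coverage of a region by at least 50%, pairing and leaving out libraries. Computation used SciPy 1.17.1 and pandas 2.3.3 with NumPy 2.4.6 under Python 3.11.15, and Matplotlib 3.10.9 for drawing.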

Additional observations from a re-analysis of the deposited data

Results flagged for a closer look

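Standard-reared activated replicate 1 stood apart from the other 4 activated libraries in the protocadherin window, in number of peaks (5.90 on the log2 scale, after adding 0.5) and in share of the list (14.8 per 10000). The gap to the next library was 0.753 and 0.857 of the range of the 5 libraries, above Dixon's critical value of 0.71. Chance flags about 1 in 20 groups, and 8 were checked. The covered length and median fold of the window in that library were not beyond that limit.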

How the results depend on the processing

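Number and share kept their direction under a -log10 q of at least 5, every summit entry and the window extended by 100 kb. None of these values passed 0.05. At equal list length the differences in number and share turned to -0.37 and -0.71 for activation in standard-reared mice, to 0.49 and 0.94 for rearing in activated nuclei, and to -0.37 and -0.71 for rearing in non-activated nuclei. Each list then held only 1 or 2 window peaks. With pairing by animal (replicate block), the signs of the differences within animals were permuted. In stressed mice the differences were 0.26 in number (exact sign permutation p = 1) and 1.127 in share (exact sign permutation p = 0.5). Over the 4 animals with both classes they were 0.90 and 1.94 (exact sign permutation p = 0.5 and 0.25). Those animals leave out standard-reared activated replicate 1 and standard-reared non-activated replicate 2, so more than pairing differs from the main values. With 3 stressed animals, and 4 animals with both classes, the paired test could not have passed 0.05. Without the 2 longest lists, chosen after the data were seen, activation over all mice gave 1.34 in number and 2.00 in share (exact permutation p = 0.0857 for both).

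Leaving out each library in turn gave differences in number of -0.31 to 1.22 for activation in stressed mice, 1.56 to 4.06 in standard-reared mice, 0.75 to 1.87 over all mice and -0.13 to 2.37 for rearing in non-activated nuclei, where the share ran from -1.39 to 2.66. Regions of 1 group then numbered 0 to 1 for activation in stressed mice, 2 to 12 in standard-reared mice, 2 to 9 for rearing in activated nuclei and 0 to 1 in non-activated nuclei, of 20 window regions. Over all regions the shares ran from 0.676% to 6.3%, 13.8% to 36.5%, 5.83% to 21.5% and 1.38% to 6.54% in those contrasts. At equal list length they numbered 1 of 4 window regions for activation in stressed mice (1.78% of all regions), 0 of 4 in standard-reared mice (10.8%) and 0 of 4 for rearing in activated nuclei (4.03%). Planned results by gene class were not run for want of an mm39 annotation. A -log10 q of at least 5 gave 1 of 7 for activation in standard-reared mice (10.3% of all regions) and 0 of 7 for rearing in activated nuclei (4.85%), and requiring 50% of the region to be covered gave 1 of 18 for rearing in activated nuclei (5.32%).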
